A study of Mus musculus with 6 samples.

Results

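The urea cycle and the pathways that break down amino acids in hepatocytes were followed across 6 mouse livers through 42 genes. The genes were chosen by symbol from a list of 44 entries, which held 43 different symbols because Bckdhb was entered more than once; the symbol Gstz1l was not matched to a row and is not analysed here. The 42 genes were among 16426 listed in at least 1 liver, and all 42 were listed in every liver and passed the filter on low counts. The study sequenced RNA from 3 livers given an AAV8 vector with a hairpin (shRNA) against S1pr2, a receptor for the lipid sphingosine-1-phosphate, and from 3 livers given the same kind of vector with a scrambled hairpin. All mice were 7 to 12 weeks old and on a mixed B6:sv129 background. According to the series text, males drank dexamethasone, a synthetic glucocorticoid, at about 0.84 mg/kg for 7 days. The treatment is not written on the individual samples, and no group without it is analysed here, so both groups are taken to share it. Neither the promoter driving the hairpin nor the cells it reached is given in the sources used here, and the samples are whole liver.

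The urea cycle turns the ammonia released from amino acids into urea, starting in hepatocyte mitochondria and ending in the cytosol. Breakdown of each amino acid follows its own route, which begins in most cases by moving the amino group to a keto acid and sends the carbon chain to glucose, ketone bodies or the citric acid cycle. Many of these enzymes are more abundant in periportal than in pericentral hepatocytes. Glucocorticoids and glucagon are known inducers of several of them, with Tat and Tdo2 as classical glucocorticoid-induced genes.

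The libraries held 16558775 to 17410160 expected counts (the number of fragments assigned to genes, without scaling to depth) and listed 14522 to 15106 genes. The targeted transcript S1pr2 stood at 3.04, 2.20 and 2.22 CPM (counts scaled to library size with TMM factors, which correct for library composition) in S1pr2 shRNA livers 1 to 3, against 4.41, 5.23 and 6.66 CPM in scramble livers 1 to 3. Its log2 fold change was -1.12 (SE 0.24, edgeR adjusted p = 0.0301), and an exact two-sided permutation test gave p = 0.1. With 20 ways to assign the livers, no smaller p was possible. The call on the S1pr2 level was lost without scramble liver 2 or 3 or S1pr2 shRNA liver 2 or 3 (adjusted p = 0.0785 to 0.117). One liver of each group stood apart in the genes described here. S1pr2 shRNA liver 1 had the lowest CPM of the 6 livers in 30 of the 42 genes, as it did in 22.7% of all tested genes, and scramble liver 1 had the highest in 24 of the 42, as it did in 24.1% of all tested genes. The labels do not say that the replicates are separate animals, so the p-values measure the spread between these samples.

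The proximal promoters of 4 of the genes are shown. Tat, Got1 and Gnmt were picked from the 12 genes below the scramble range in every S1pr2 shRNA liver. Cbs was the only gene above it. Each run is the 250 bases before the RefSeq start on GRCm38.p6, written 5′ to 3′ on the gene's strand, and capitals mark CCAAT or its reverse complement ATTGG.
Tat: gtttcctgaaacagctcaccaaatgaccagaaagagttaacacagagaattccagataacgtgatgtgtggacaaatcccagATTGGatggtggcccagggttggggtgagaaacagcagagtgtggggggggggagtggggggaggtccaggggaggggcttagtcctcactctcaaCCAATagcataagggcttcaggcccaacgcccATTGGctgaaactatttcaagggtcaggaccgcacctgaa
Got1: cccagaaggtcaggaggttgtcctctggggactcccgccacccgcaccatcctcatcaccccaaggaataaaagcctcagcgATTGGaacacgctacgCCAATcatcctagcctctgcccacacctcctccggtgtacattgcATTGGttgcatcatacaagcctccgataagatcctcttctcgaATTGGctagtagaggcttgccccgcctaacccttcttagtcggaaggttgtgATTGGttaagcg
Gnmt: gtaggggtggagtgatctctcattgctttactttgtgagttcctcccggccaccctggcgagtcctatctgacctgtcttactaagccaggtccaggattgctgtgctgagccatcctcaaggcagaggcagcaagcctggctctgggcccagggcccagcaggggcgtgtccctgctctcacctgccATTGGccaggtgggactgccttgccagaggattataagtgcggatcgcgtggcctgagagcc
Cbs: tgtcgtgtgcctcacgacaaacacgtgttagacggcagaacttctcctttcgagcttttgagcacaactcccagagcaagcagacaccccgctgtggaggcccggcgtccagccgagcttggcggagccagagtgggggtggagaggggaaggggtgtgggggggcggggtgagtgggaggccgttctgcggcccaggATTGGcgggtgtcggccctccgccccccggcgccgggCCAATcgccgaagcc
The stretches are chr8:109990186-109990435 on the plus strand for Tat, and on the minus strand chr19:43524606-43524855 for Got1, chr17:46729166-46729415 for Gnmt and chr17:31637206-31637455 for Cbs. They hold 3, 5, 1 and 2 copies of the capital motif in that order. RefSeq promoters of 300 bases (250 before and 50 after the start) were matched for 32 of the 42 genes, 34 promoters in all. CCAAT on either strand was in 52.9% of these 34 and in 37.4% of all 32851 promoters. It was searched after the printed sequences had been seen, and the 34 include those 4, so these shares are not a test. The glucocorticoid receptor half-site AGAACA was in 8.82% of the 34, those of Bckdhb, Haao and Kmo, and in 19% of all promoters. The C/EBP core TTGCNNAA was in 11.8% of the 34, those of Aass, Hal, Hgd and Prodh2, and in 10.8% of all, and the CRE half-site TGACG was in 17.6% of the 34 and 20.8% of all. Each motif was searched on both strands. A match describes letters in this window and is not a binding site.

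Levels were compared between genes in FPKM, the authors' value per kilobase of transcript. Bhmt, which remethylates homocysteine with betaine, was the most abundant of the 42, at 6122 ± 931 FPKM in S1pr2 shRNA livers and 6461 ± 201 in scramble livers (SD, n = 3 each). Next came Ass1, Gnmt, Hpd, Arg1, Mat1a, Tdo2 and Cps1, with means over the 6 livers of 1757, 1631, 1541, 1187, 986, 947 and 738 FPKM. The least abundant was Sdsl, a serine dehydratase-like enzyme, at 7.34 ± 1.24 FPKM in S1pr2 shRNA livers and 9.71 ± 0.853 in scramble livers. Together the 42 genes took 3.20, 4.23 and 4.05% of the counts in S1pr2 shRNA livers 1 to 3, against 5.14, 3.74 and 3.97% in scramble livers 1 to 3. The groups overlapped in that share, with the livers numbered 1 at its 2 ends.

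**Figure D1:**
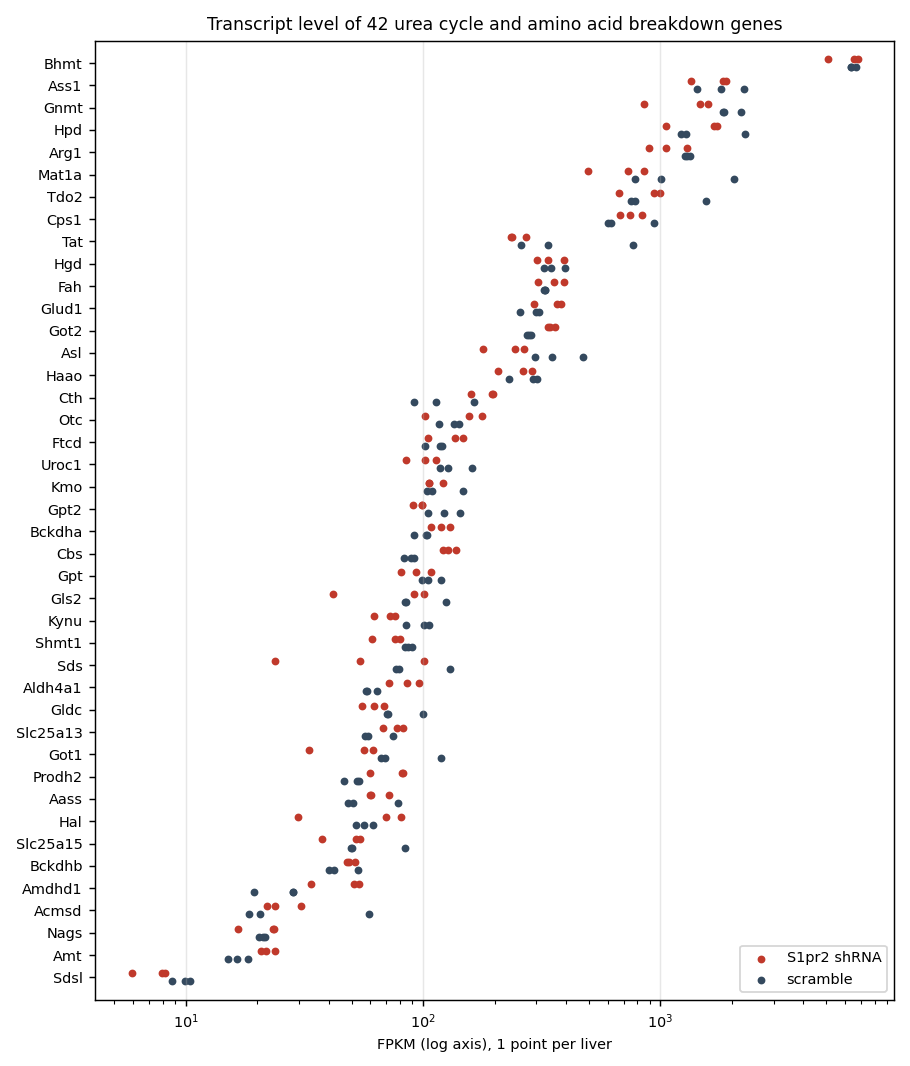
FPKM (log axis) of each of the 42 genes, 1 point per liver, with S1pr2 shRNA livers above scramble livers in each row; genes run from the most abundant, Bhmt (mean 6292 FPKM), to the least abundant, Sdsl (mean 8.53 FPKM). The distance between the 2 groups is small beside the distance between genes.

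None of the 42 genes changed between the groups at an adjusted p under 0.05. By the edgeR quasi-likelihood test 0 of 42 rose and 0 fell, where 3.02% of the 12230 tested genes rose and 4.64% fell (7.66% in all). At an unadjusted p under 0.05, 11 of the 42 were lower (12.9% of all tested genes) and 2 were higher (11.5%). The limma-voom test called 0 of 42, against 6.98% of all genes. The DESeq2 Wald test, which gave more calls over all genes, called 8 of 42 lower (6.91% of all genes) and 1 higher (5.04%), as given gene by gene below. The median log2 fold change of the 42 was -0.22, beside 0.01 over all tested genes, and 30 of the 42 values lay below 0, as did 48.6% of all. In 12 of the 42 every S1pr2 shRNA liver was below every scramble liver (16.8% of all genes), and in 1, Cbs, every S1pr2 shRNA liver was above (15.1%). In bulk liver, fewer cells that express a gene and less RNA per cell cannot be told apart.

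**Figure D2:**
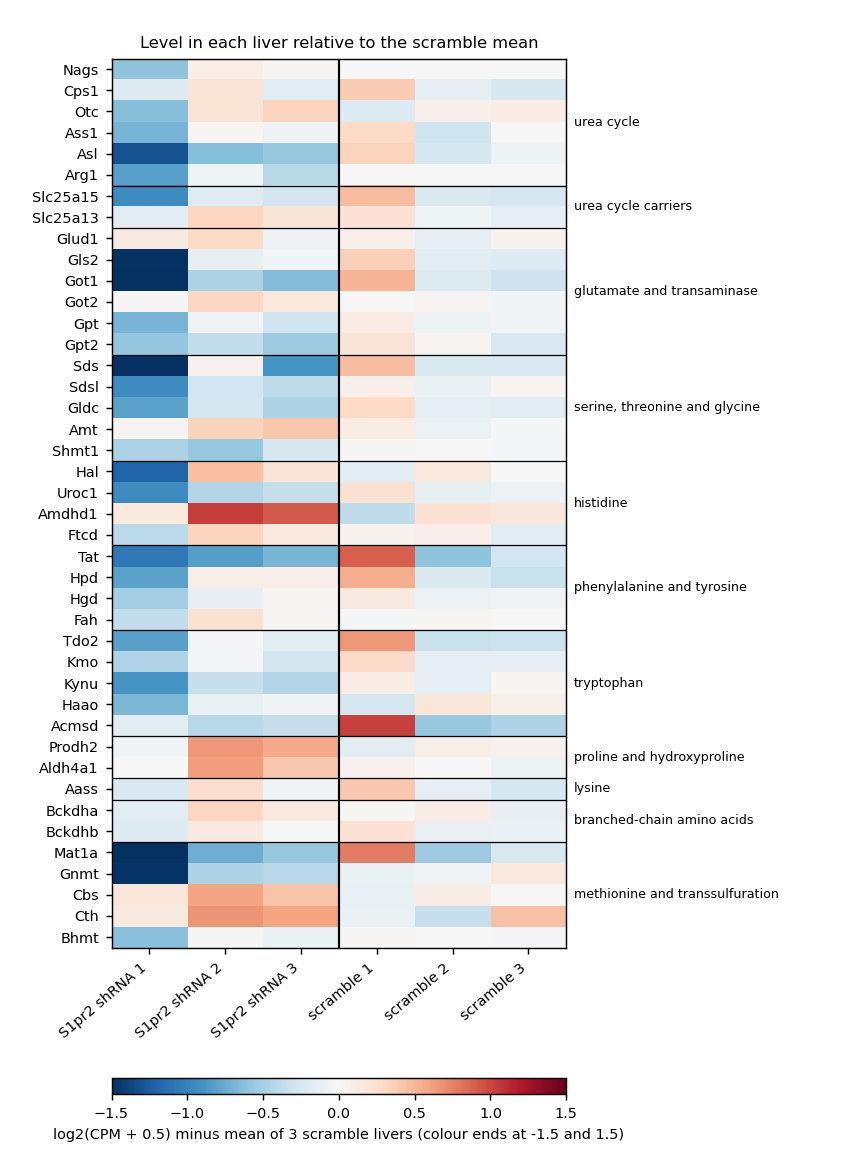
Level of each gene in each liver, as log2(CPM + 0.5) minus the mean of the 3 scramble livers, with S1pr2 shRNA livers 1 to 3 left of scramble livers 1 to 3 and genes grouped by pathway; blue is lower and red higher, and colours end at -1.5 and 1.5. The S1pr2 shRNA 1 column is blue for most genes, while S1pr2 shRNA 2 and 3 hold both colours.

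In the urea cycle, the last enzymes, Asl and Arg1, were below the scramble range in every S1pr2 shRNA liver (2 of 6 genes, beside 16.8% of all tested genes). Asl (Entrez gene 109900), the lyase that splits argininosuccinate into arginine and fumarate, had 247, 393 and 413 CPM in S1pr2 shRNA livers 1 to 3 and 772, 509.5 and 580.1 CPM in scramble livers 1 to 3. The groups did not overlap. Its log2 fold change was -0.82 (SE 0.24, 95% interval -1.38 to -0.27), with an edgeR adjusted p = 0.0806 that missed the threshold and a DESeq2 adjusted p = 0.00798 that passed it. Arg1 (11846), which releases urea from arginine, was at 1148, 1939 and 1524 CPM in S1pr2 shRNA livers, against 2032, 2036 and 2011 CPM in scramble livers. The scramble livers lay close together and above all S1pr2 shRNA livers, which were spread widely (SD 395 CPM, against 13.4 in scramble). Its log2 fold change was -0.40 (SE 0.21, 95% interval -0.88 to 0.09, edgeR adjusted p = 0.292).

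The entry steps overlapped between the groups. Cps1 (227231), which makes carbamoyl phosphate from ammonia in mitochondria, had 3673, 4827 and 3745 CPM in S1pr2 shRNA livers and 5505, 3811 and 3571 CPM in scramble livers (log2 fold change -0.07, SE 0.23, 95% interval -0.60 to 0.45, edgeR adjusted p = 0.883). Ass1 (11898), which joins citrulline and aspartate, averaged 2647 ± 663 CPM in S1pr2 shRNA livers and 3120 ± 648 in scramble livers (SD, n = 3 each; log2 fold change -0.24, 95% interval -0.81 to 0.34). Otc, which makes citrulline, and Nags, which makes the activator of Cps1, had log2 fold changes of 0.02 (95% interval -0.56 to 0.60) and -0.12 (-0.54 to 0.29). The intervals of Cps1, Ass1, Otc and Nags reach past 0.5 log2 units in at least 1 direction. Of the carriers that link the mitochondrial and cytosolic parts of the cycle, the ornithine carrier Slc25a15 stood at -0.48 (95% interval -1.09 to 0.14) and the aspartate-glutamate carrier Slc25a13 at 0.12 (-0.27 to 0.51). The 6 enzymes of the cycle had a median log2 fold change of -0.18.

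Among the transaminases, Got1 and Gpt2 were below the scramble range in every S1pr2 shRNA liver, as were 16.8% of all tested genes. Got2 and Gpt, their partners, were not below it. Got1 (14718), cytosolic aspartate aminotransferase, had 59.6, 129 and 114 CPM in S1pr2 shRNA livers, against 255, 155 and 144 CPM in scramble livers. The groups did not overlap, and S1pr2 shRNA liver 1 and scramble liver 1 were the extremes. The log2 fold change was -0.88 (SE 0.34, 95% interval -1.70 to -0.06, edgeR adjusted p = 0.178, DESeq2 adjusted p = 0.0422). Gpt2 (108682), an alanine aminotransferase of mitochondria, had 313, 364 and 322 CPM in S1pr2 shRNA livers and 535, 483 and 400.1 CPM in scramble livers, again without overlap (log2 fold change -0.50, SE 0.15, edgeR adjusted p = 0.0902, DESeq2 adjusted p = 0.0128). Gpt, the cytosolic alanine aminotransferase, was at -0.33 (95% interval -0.73 to 0.07) with overlapping groups. Got2, the mitochondrial aspartate aminotransferase, was at 0.16 (-0.17 to 0.50) and Glud1, which frees ammonia from glutamate, at 0.13 (-0.24 to 0.50). Gls2, the liver glutaminase, was at 89.7 CPM in S1pr2 shRNA liver 1 and between 219 and 320.5 CPM in the other 5 livers.

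For serine and glycine, 3 of 5 genes were below the scramble range in every S1pr2 shRNA liver, as were 16.8% of all tested genes. Shmt1 (20425), the cytosolic enzyme that interconverts serine and glycine, had 137, 129 and 162 CPM in S1pr2 shRNA livers and 193, 189.9 and 188 CPM in scramble livers. Its groups were separated although the log2 fold change was only -0.42 (SE 0.12, 95% interval -0.71 to -0.13, edgeR adjusted p = 0.0845, DESeq2 adjusted p = 0.0181). Gldc (104174), the glycine decarboxylase of the mitochondrial glycine cleavage system, averaged 228 ± 42.1 CPM in S1pr2 shRNA livers and 325 ± 62.4 CPM in scramble livers (log2 fold change -0.51, edgeR adjusted p = 0.148). Amt, the aminomethyltransferase of that system, was at 0.27 (95% interval -0.02 to 0.56), with overlapping groups. Sds (231691), the serine dehydratase that yields pyruvate, was the most variable of the 42, with an SE of 0.58. It had 23.7, 117 and 60.7 CPM in S1pr2 shRNA livers and 154, 95.5 and 95.3 CPM in scramble livers, so that its log2 fold change of -0.78 has a 95% interval of -2.22 to 0.66. Sdsl had 6.22, 10.04 and 9.37 CPM in S1pr2 shRNA livers, all below the 13.1, 11.5 and 12.6 CPM in scramble livers (log2 fold change -0.54, SE 0.19, edgeR adjusted p = 0.121).

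The 4 histidine genes did not share a direction, and 1 was below the scramble range in every S1pr2 shRNA liver (16.8% of all tested genes). Uroc1 (243537), urocanate hydratase, had 249.8, 353 and 375 CPM in S1pr2 shRNA livers and 563, 435 and 452 CPM in scramble livers, without overlap (log2 fold change -0.57, SE 0.19, edgeR adjusted p = 0.118, DESeq2 adjusted p = 0.0356). Amdhd1 (71761), which acts on the product of Uroc1, had the largest positive value of the 42. It was at 71.0, 132 and 122 CPM in S1pr2 shRNA livers, against 49.0, 74.7 and 71.9 CPM in scramble livers. Only S1pr2 shRNA liver 1 lay within the scramble range, and the log2 fold change was 0.73 (SE 0.26, 95% interval 0.11 to 1.36, edgeR adjusted p = 0.145, DESeq2 adjusted p = 0.0469). Hal, which opens the pathway, was at 71.5 CPM in S1pr2 shRNA liver 1 and at 227 and 189 CPM in S1pr2 shRNA livers 2 and 3, on either side of the 149 to 186 CPM of the scramble livers. Ftcd, which passes the last one-carbon unit to folate, was at 0.06 (95% interval -0.40 to 0.51).

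Tat (234724), tyrosine aminotransferase, had the largest negative value of the 42. It was at 487, 577 and 632 CPM in S1pr2 shRNA livers and at 1898, 672 and 838 CPM in scramble livers. The groups did not overlap, and scramble liver 1 was more than 2 times every other liver. The log2 fold change was -1.01 (SE 0.39, 95% interval -1.92 to -0.10, edgeR adjusted p = 0.164, DESeq2 adjusted p = 0.0290). Without both livers numbered 1 it was -0.32 (edgeR adjusted p = 0.190). The enzymes downstream of Tat overlapped between the groups. Hpd (15445), which makes homogentisate, had 1287, 2399 and 2363 CPM in S1pr2 shRNA livers and 3289.5, 1938 and 1779.8 CPM in scramble livers (log2 fold change -0.21, 95% interval -0.96 to 0.54). Hgd, which opens the homogentisate ring, stood at -0.19 (-0.59 to 0.22) and Fah, the last enzyme of the route, at -0.02 (-0.42 to 0.38).

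All 5 tryptophan genes had negative values, from -0.54 to -0.25, where 48.6% of all tested genes had negative values. In 1 of the 5 every S1pr2 shRNA liver was below every scramble liver (16.8% of all tested genes). Kynu (70789), kynureninase, had 135, 197 and 185 CPM in S1pr2 shRNA livers, below the 271, 227 and 256 CPM in scramble livers (log2 fold change -0.54, SE 0.17, edgeR adjusted p = 0.0906, DESeq2 adjusted p = 0.0233). Tdo2 (56720), which opens the tryptophan ring, had 951, 1662 and 1509 CPM in S1pr2 shRNA livers and 2626, 1336 and 1346 CPM in scramble livers. Its value of -0.36 (95% interval -1.13 to 0.40) rested on the livers numbered 1, and S1pr2 shRNA livers 2 and 3 were above scramble livers 2 and 3. Acmsd (266645), which draws the pathway away from NAD synthesis, had 61.7, 51.5 and 53.5 CPM in S1pr2 shRNA livers and 141, 46.5 and 49.9 CPM in scramble livers. Here 1 scramble liver alone was high, and without it the log2 fold change was 0.21. Kmo and Haao, the enzymes on either side of kynureninase, stood at -0.25 each, with 95% intervals of -0.66 to 0.15 and -0.73 to 0.22.

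Genes of proline, lysine and branched-chain amino acid breakdown had log2 fold changes near or above 0. Prodh2 (56189), which oxidises hydroxyproline, had 94.0, 152 and 144 CPM in S1pr2 shRNA livers and 86.9, 104 and 102 CPM in scramble livers (log2 fold change 0.42, SE 0.19, 95% interval -0.02 to 0.85, edgeR adjusted p = 0.224). S1pr2 shRNA livers 2 and 3 were above all scramble livers. Aldh4a1, a dehydrogenase shared by the proline and hydroxyproline routes, had 212, 330 and 284 CPM in S1pr2 shRNA livers and 224, 214 and 203 CPM in scramble livers (0.36, 95% interval -0.03 to 0.76). Aass, the first enzyme of lysine breakdown, was at -0.02 (-0.51 to 0.47). Bckdha and Bckdhb, the E1 subunits of branched-chain keto acid dehydrogenase, were at 0.12 (-0.24 to 0.47) and -0.02 (-0.33 to 0.29).

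In methionine metabolism the enzymes that make and spend S-adenosylmethionine were below the scramble range, and those of transsulfuration were higher on average. Of the 5 genes, 2 were below that range in every S1pr2 shRNA liver (16.8% of all tested genes) and 1 was above (15.1%). Mat1a (11720), which makes S-adenosylmethionine in hepatocytes, had 1516, 2614 and 2936 CPM in S1pr2 shRNA livers and 7426, 2985 and 3711 CPM in scramble livers. S1pr2 shRNA liver 3 and scramble liver 2 were almost equal, and most of the distance between the group means came from the livers numbered 1. The log2 fold change was -0.999 (SE 0.40, 95% interval -1.93 to -0.07, edgeR adjusted p = 0.175, DESeq2 adjusted p = 0.0355), and without both livers numbered 1 it was -0.27. Gnmt (14711), which uses S-adenosylmethionine to methylate glycine, had 761, 1533 and 1586 CPM in S1pr2 shRNA livers and 1967, 2034 and 2354 CPM in scramble livers. Each S1pr2 shRNA liver was below the lowest scramble liver (log2 fold change -0.71, SE 0.28, edgeR adjusted p = 0.165).

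Cbs (12411), which condenses homocysteine with serine, had 262, 349 and 311 CPM in S1pr2 shRNA livers, above the 213, 249 and 232 CPM in scramble livers (log2 fold change 0.41, SE 0.15, 95% interval 0.07 to 0.75, edgeR adjusted p = 0.134). On the deposited FPKM, Cbs was at 129 ± 8.31 in S1pr2 shRNA livers and 87.8 ± 4.63 in scramble livers, and there it passed (limma adjusted p = 0.0257 with a pseudocount of 0.1, where 4.33% of all genes rose). On that scale the median of all genes was itself 0.16 log2 units above 0, and Cbs stood at 0.55. Cth, which makes cysteine from cystathionine, was at 0.44 (95% interval -0.10 to 0.98), with scramble liver 3, at 312 CPM, inside the range of S1pr2 shRNA livers. Bhmt (12116) had 9166, 14404 and 13254 CPM in S1pr2 shRNA livers and 14429.7, 14321 and 13883 CPM in scramble livers (-0.21, 95% interval -0.72 to 0.30). Counts of Bhmt, Gls2, Kynu, Acmsd and Bckdhb were not whole numbers in all 6 libraries, nor those of Shmt1 and Ftcd in 3 and of Hpd and Kmo in 1. Fractional counts arise where reads match more than 1 sequence, so these values are uncertain.

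**Figure D3:**
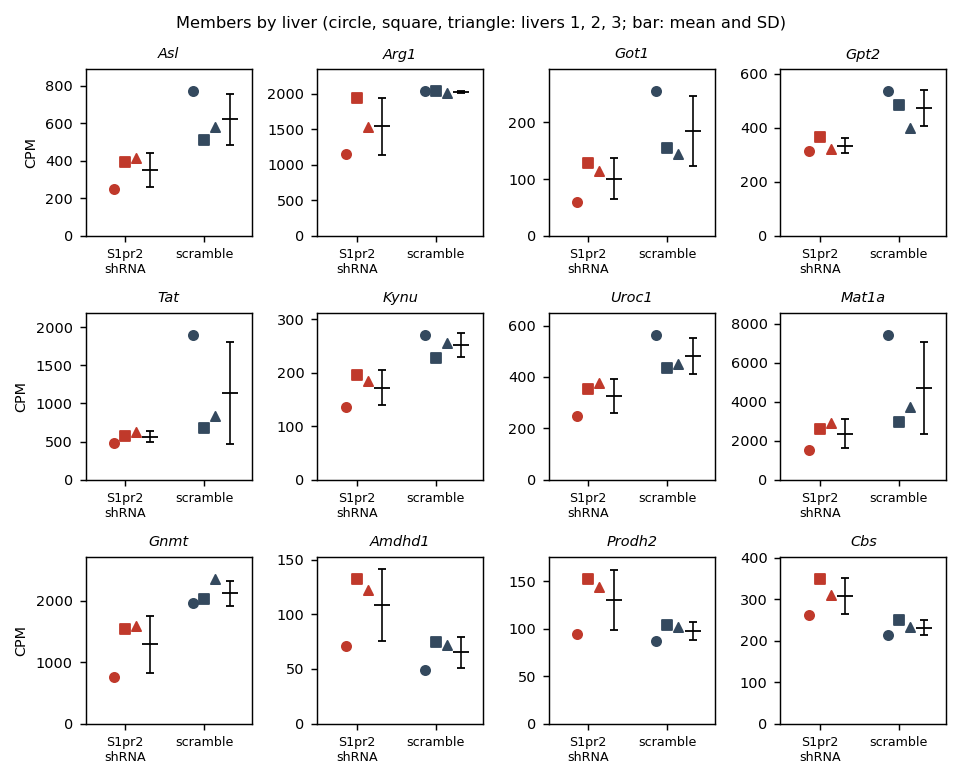
CPM of 12 of the genes in each liver (circle, square and triangle for livers 1, 2 and 3), S1pr2 shRNA left of scramble, with the mean and SD of each group beside the points. Only Amdhd1 and Prodh2 show overlap between the groups. Scramble liver 1 lies far above the rest for Tat and Mat1a, and S1pr2 shRNA liver 1 is the lowest of its group in all 12 genes.

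How far the values rested on S1pr2 shRNA liver 1 and scramble liver 1 was measured by leaving both out, a setting chosen after the values had been seen. S1pr2 shRNA liver 1 had the lowest CPM in 30 of the 42 genes, and scramble liver 1 the highest in 24. Leaving both out therefore tends to raise the log2 fold changes by construction, so the calls in that fit are a description and not a test. With the other 4 livers the median log2 fold change of the 42 was 0.10, beside -0.00 over all genes, and 18 of 42 values lay below 0. The edgeR test then called 5 of the 42 higher, where 4.18% of all genes rose, and 1 lower, where 5.05% fell. Amdhd1 was 0.79 (SE 0.10, edgeR adjusted p = 0.00415) in that fit. Prodh2 was 0.53 (edgeR adjusted p = 0.0171), Aldh4a1 0.56 (0.0253), Cbs 0.46 (0.0444) and Amt 0.43 (0.0480). The lower gene was Gnmt, at -0.49 (edgeR adjusted p = 0.0495). Asl was at -0.44 and was not called (edgeR adjusted p = 0.0551). Leaving out S1pr2 shRNA liver 1 alone gave 2 calls, both higher (2.16% of all genes), in Amdhd1 (0.96, edgeR adjusted p = 0.0390) and Prodh2 (0.60, edgeR adjusted p = 0.0406).

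**Figure D4:**
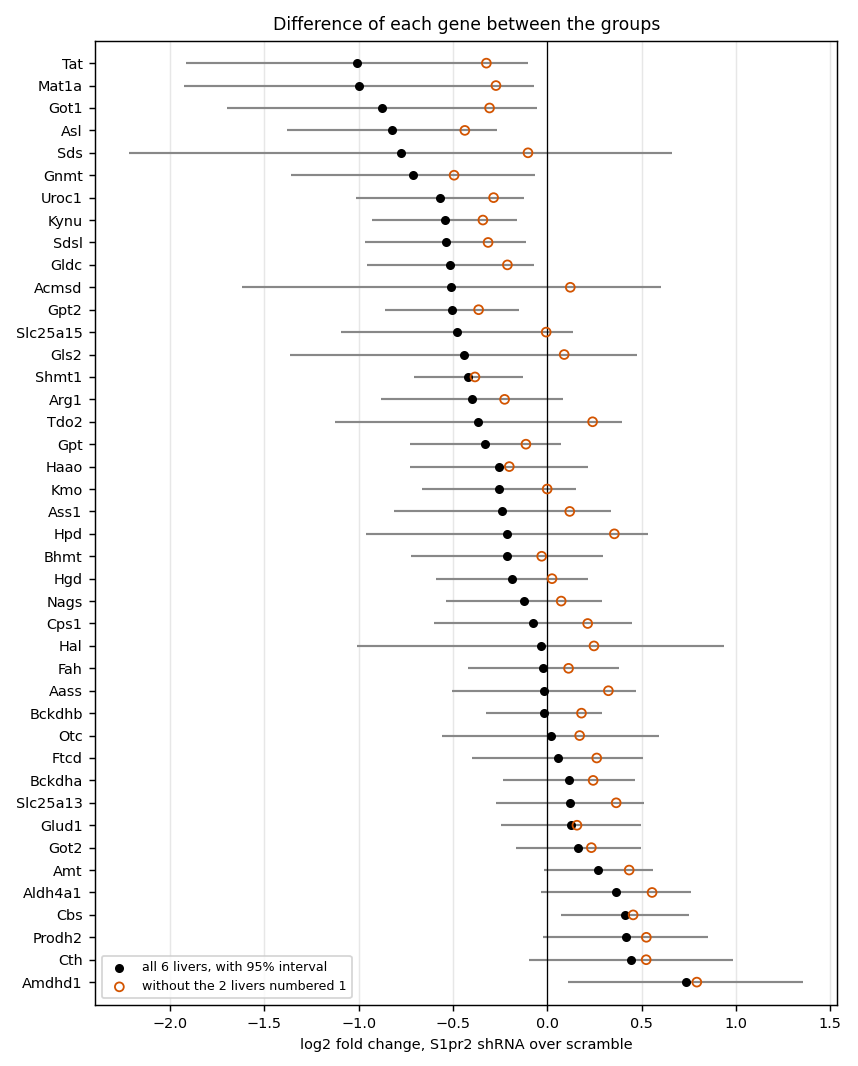
Log2 fold change of each of the 42 genes, S1pr2 shRNA over scramble, with black points and 95% intervals from all 6 livers and open orange points from the fit without the 2 livers numbered 1. Black points run from -1.01 (Tat) to 0.73 (Amdhd1); for genes with large negative values the orange points lie nearer to 0, whereas those of Amdhd1, Cbs and Prodh2 stay at or beyond their black points.

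S1pr2 shRNA liver 1 also had the highest mean of the 6 livers in macrophage and stellate cell markers. Relative to the scramble mean, the 42 genes averaged -0.62, 0.02 and -0.09 log2 units in S1pr2 shRNA livers 1 to 3, against 0.19, -0.10 and -0.08 in scramble livers 1 to 3. On the same scale 10 macrophage markers stood at 1.12, 0.23 and 0.16 in S1pr2 shRNA livers, against -0.34, -0.23 and 0.57 in scramble livers. For 10 stellate cell markers these means were 0.97, -0.16 and -0.09 in S1pr2 shRNA livers and -0.65, 0.00 and 0.65 in scramble livers. The summed FPKM of the macrophage list was 249 in S1pr2 shRNA liver 1 and 74.1 to 135 in the other 5 livers. Of 10 endothelial markers 4 rose (Kdr, Cdh5, Tek and Tie1, where 3.02% of all genes rose) and 0 fell. Lyve1, in the same list, went the other way (log2 fold change -0.83, edgeR adjusted p = 0.227). With single livers left out 0 to 1 of the 10 rose. By DESeq2 5 rose (5.04% of all genes). Without both livers numbered 1, 4 rose (4.18%) and 1 fell (5.05%). This list had a summed FPKM of 126, 102 and 97.2 in S1pr2 shRNA livers 1 to 3 and 79.4, 83.1 and 85.0 in scramble livers 1 to 3. Of the tested markers 0 of 10 macrophage and 0 of 10 stellate genes passed the edgeR test (7.66% of all genes). In each list 1 was higher at an unadjusted p under 0.05 (11.5% of all genes). By DESeq2, 1 macrophage marker rose (5.04% of all genes) and 0 stellate markers passed. All 10 hepatocyte markers, 1 of them among the 42 genes, were tested, with 0 called by edgeR. At an unadjusted p under 0.05, 2 were lower (12.9% of all genes) and 1 higher (11.5%). By DESeq2, 2 fell (6.91%) and 1 rose (5.04%). Alb (log2 fold change -0.59) and Apob (-0.61) were below the scramble range in every S1pr2 shRNA liver (16.8% of all genes), and Apoa1 (1.08) was above it (15.1%). The hepatocyte list had a summed FPKM of 67790 to 84080 in S1pr2 shRNA livers and 74465 to 95704 in scramble livers. No marker in these lists was at 0 in all livers. Their part in the values of the 42 genes was not tested.

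Scramble liver 1 was also the highest in glucocorticoid-responsive transcripts. Over 10 such genes the mean was -0.70, -1.16 and -2.07 in S1pr2 shRNA livers and 0.79, -0.64 and -0.15 in scramble livers. Of the 10, 0 rose and 1 fell, Dusp1, a phosphatase gene (log2 fold change -2.01, edgeR adjusted p = 0.0118, lost without S1pr2 shRNA liver 2, without both livers numbered 1 and with the replicate number in the model), beside 4.64% of all genes. The median was -1.22, and it was -1.78 without S1pr2 shRNA liver 1 and -0.72 without scramble liver 1. By DESeq2, 3 of the 10 fell (6.91% of all genes). By limma-voom, with robust estimation off and with the replicate number in the model, 2 fell each time. These settings called 6.98, 7.47 and 6.61% of all genes in either direction. Fkbp5, a glucocorticoid receptor co-chaperone, was at 102, 139 and 40.6 CPM in S1pr2 shRNA livers and 711, 246 and 353 CPM in scramble livers, which did not overlap (edgeR adjusted p = 0.0800). It was 1 of 3 genes in the list below the scramble range in every S1pr2 shRNA liver (16.8% of all genes). The S1pr2 shRNA liver lowest in this list was liver 3, whereas for the 42 genes it was liver 1. Whether this list bears on the 42 genes was not tested.

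Enzymes of the same pathways outside the 42 genes did include some that passed the test. Of 57 further catabolic enzymes 55 were found and tested; 2 rose (3.02% of all genes), 5 fell (4.64%) and 48 did not pass, with a median log2 fold change of 0.04. Mat2b (108645), the regulatory partner of the extrahepatic methionine adenosyltransferase, fell to 11.2, 13.5 and 12.9 CPM in S1pr2 shRNA livers, against 24.3, 23.5 and 25.3 CPM in scramble livers (log2 fold change -0.96, SE 0.11, edgeR adjusted p = 0.00524). Its call held in each fit that omitted 1 liver and under the other settings tried. Pcca (110821), a subunit of propionyl-CoA carboxylase, fell to 58.6, 82.5 and 81.3 CPM in S1pr2 shRNA livers, against 112, 115 and 113 CPM in scramble livers (-0.61, edgeR adjusted p = 0.0433). Gcsh, the lipoyl carrier of the glycine cleavage system, fell by 0.57 (edgeR adjusted p = 0.0392), and Ido2, a tryptophan-opening dioxygenase, by 0.56 (edgeR adjusted p = 0.0484). Bckdk (12041), the kinase that switches off branched-chain keto acid dehydrogenase, fell to 15.02, 13.96 and 14.9 CPM in S1pr2 shRNA livers, against 22.5, 22.1 and 20.03 CPM in scramble livers (-0.56, edgeR adjusted p = 0.0178).

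The enzymes that rose were Agxt and Tst. Agxt (11611), which turns glyoxylate into glycine, rose to 83.4, 195 and 151 CPM in S1pr2 shRNA livers, against 50.4, 66.1 and 53.7 CPM in scramble livers (log2 fold change 1.33, SE 0.30, edgeR adjusted p = 0.0459). Tst (22117), a mitochondrial sulfurtransferase, rose to 157, 198 and 166 CPM in S1pr2 shRNA livers, against 118, 106 and 110 CPM in scramble livers (0.64, SE 0.13, edgeR adjusted p = 0.0253). In both, every S1pr2 shRNA liver was above every scramble liver. Of 23 amino acid carriers 21 were tested, 0 rose (3.02% of all genes), 2 fell (4.64%) and 19 did not pass. With single livers left out 0 to 1 fell. The fallers were Slc3a1, a subunit of a cystine and dibasic amino acid transporter (-0.90, SE 0.15, edgeR adjusted p = 0.0136), and Slc25a12, the second aspartate-glutamate carrier (-0.51, SE 0.12, edgeR adjusted p = 0.0465). With single livers left out, Gcsh, Ido2 and Slc25a12 lost their call in 6 of 6 fits, Pcca and Agxt in 5, Bckdk and Tst in 4 and Slc3a1 in 1. Over all 17 alternative settings Slc25a12 lost it in 13, Ido2 in 12, Gcsh in 9, Pcca, Agxt and Bckdk in 6, Tst in 5 and Slc3a1 in 1. Bckdk, Slc3a1 and Slc25a12 had fractional counts in 6 libraries and Ido2 in 5, so these are uncertain. With single livers left out the catabolic list had 0 to 4 calls higher and 1 to 3 lower, and without both livers numbered 1 it had 7 higher (4.18% of all genes) and 4 lower (5.05%). Upper-quartile factors in place of TMM gave 3 higher and 2 lower, where 506 of 12230 genes rose and 476 fell. On FPKM with a pseudocount of 0.1 there were 5 higher and 2 lower, where 570 of 13168 genes rose and 254 fell. The balance of calls in this list therefore depended on the scaling.

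**Figure D5:**
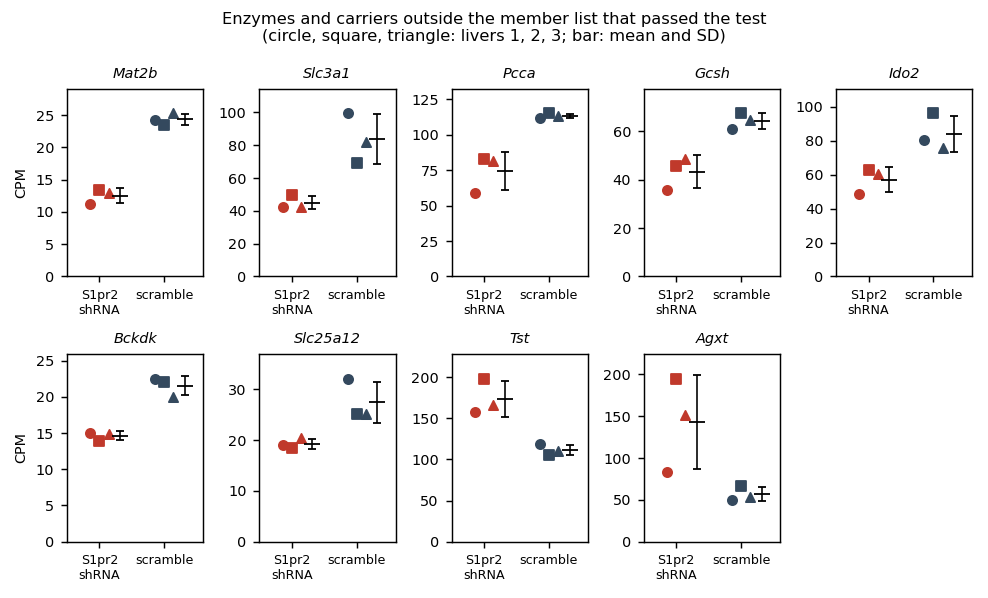
CPM in each liver (circle, square and triangle for livers 1, 2 and 3) of the 9 catabolic enzymes and carriers outside the 42 genes that passed the test, S1pr2 shRNA left of scramble, with mean and SD. Mat2b to Slc25a12 are lower in every S1pr2 shRNA liver and Tst and Agxt higher, with the narrowest groups for Mat2b and Bckdk.

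Regulators of these pathways showed 1 call among 13 tested, which is 7.69% beside 7.66% of all genes. Ddit3, the stress-induced factor CHOP, rose to 8.30, 6.55 and 6.56 CPM in S1pr2 shRNA livers, against 3.49, 3.48 and 2.72 CPM in scramble livers (log2 fold change 1.14, SE 0.19, edgeR adjusted p = 0.0142). It had fractional counts in 5 libraries, and the call was lost without S1pr2 shRNA liver 2 or scramble liver 3. Klf15, a known activator of amino acid breakdown genes, was at 64.8, 94.0 and 95.9 CPM in S1pr2 shRNA livers and 119, 70.7 and 87.2 CPM in scramble livers (-0.12, edgeR adjusted p = 0.795). The glucocorticoid receptor gene Nr3c1 (0.19), the glucagon receptor gene Gcgr (-0.23), Cebpa (-0.14), Cebpb (-0.74), Foxo1 (-0.48), Hnf4a (-0.36), Ppargc1a (-0.13), Creb3l3 (-0.13), Atf4 (-0.23), Atf5 (0.14) and Prox1 (-0.15) did not pass either. Of 9 tested genes of serine synthesis and the amino acid response, 0 passed, and Asns, asparagine synthetase, came closest at 0.85 (edgeR adjusted p = 0.0660).

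Zonation markers rose in 10% of the periportal list and 20% of the pericentral list, where 3.02% of all genes rose. Of 10 periportal markers, a list that shares Sds, Gls2 and Hal with the 42 genes, 1 rose, Cdh1, which encodes E-cadherin (log2 fold change 2.68, edgeR adjusted p = 0.0188), and the median was -0.21. Of 10 pericentral markers 2 rose, the cytochrome P450 gene Cyp1a2 (1.70, edgeR adjusted p = 0.0140) and Lgr5, a receptor gene of the Wnt pathway (0.88, edgeR adjusted p = 0.0266). The median was 0.18. Glul, the pericentral glutamine synthetase that takes up the ammonia left by the urea cycle, had 1417, 1613 and 1438 CPM in S1pr2 shRNA livers and 1623, 1409 and 1443 CPM in scramble livers (-0.00, 95% interval -0.36 to 0.35). Cyp1a2 and Lgr5 had fractional counts in 6 libraries, so both are uncertain, and Lgr5 had only 43 to 113 counts. The Lgr5 call was lost with any single liver left out. Cdh1 lost its call in 4 of 6 such fits and Cyp1a2 in 2. Without both livers numbered 1, 3 pericentral markers rose and 0 fell, and 1 periportal marker rose and 1 fell. In that fit 4.18% of all genes rose and 5.05% fell. Cdh1 and Lgr5 were not among the genes called there, and they also lost their calls with the replicate number in the model. Cyp1a2 kept its call in both.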

How the data were processed

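The deposited tables gave, per the file headers, an expected count and an FPKM value for each gene of each library. The tools that the submitters' processing notes name are RSEM 1.2.12, Bowtie2, HISAT2 and DESeq2, with the build mm9. What each did, with read filters and strand handling, is not given in the sources used here. FPKM values, made by the authors, are scaled per kilobase and to mapped fragments. Genes not listed in a library were given a count of 0.

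Expected counts were rounded. Of 16426 genes, 12230 passed filterByExpr (minimum count 10) and were scaled by TMM in edgeR 4.0.16 (R 4.3.3). The 3 S1pr2 shRNA and 3 scramble livers were compared by the robust quasi-likelihood F test, two-sided, with group as the only factor and Benjamini-Hochberg adjustment over all genes; a call is an adjusted p under 0.05. The 95% intervals use the test's t distribution and are not adjusted. The test was checked on simulated counts. Levels per library are log2(CPM + 0.5). Alternatives were other size factors and filters, DESeq2 1.42.0, limma-voom and limma-trend on FPKM (limma 3.58.1), the replicate number as a block, the test with robust estimation off, each liver left out and, added after the data were seen, both livers numbered 1 left out. The rule for named genes was every member (full statistics for the 12 largest absolute log2 fold changes or a mean of at least 500 FPKM), S1pr2, genes of the other lists that pass the test and all regulators. Fkbp5, Glul, Asns and other genes given full statistics were added after their values were seen. Members and lists were chosen with earlier results of these data known. The cholangiocyte marker list is not reported here.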

Additional observations from a re-analysis of the deposited data

How the results depend on the processing

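The scaling shifts all genes together: the median of all genes was 0.01 with TMM and 0.16 with FPKM and a pseudocount of 0.1, and the median of the 42 genes less that of all genes was -0.24 and -0.25. TMM and upper-quartile factors put 60.6 and 48.5% of the called genes lower, and FPKM 30.8%. The 42 genes gave 1 call higher and 8 lower with DESeq2, which called 1461 genes in all, against 937 with edgeR. There was 1 call higher on FPKM with either pseudocount (Cbs), and 1 with the replicate block (Amdhd1), which left 808 genes called. Without both livers numbered 1, a setting picked from these same values, there were 5 calls higher and 1 lower, with a median of 0.10.

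With each liver left out in turn, 231 to 643 genes were called, fewest without S1pr2 shRNA liver 2 (231). Without scramble liver 1, 2 or 3 the counts were 533, 456 and 400, and without S1pr2 shRNA liver 3 the count was 414. Of the 42 genes 0 to 2 rose and 0 fell in these fits, and their median ran from -0.35 to -0.05. The S1pr2 level ran from -1.29 to -0.95; it missed the threshold with the replicate block (-1.11, adjusted p = 0.0684) and on FPKM (-0.90 and -0.54 with pseudocounts of 0.1 and 1).

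Some values changed sign, and none of these was called; most were near 0, but Acmsd (-0.51), Gls2 (-0.44) and Tdo2 (-0.36) were not. With upper-quartile factors Hal was 0.027, Fah 0.043, Aass 0.053 and Bckdhb 0.049. With limma-voom Otc was -0.027 and Aass 0.0030, and with the replicate block -0.035 and 0.00097. On FPKM with pseudocounts of 0.1 and 1, Cps1 was 0.090 and 0.090, Fah 0.11 and 0.11, Aass 0.15 and 0.14, and Bckdhb 0.13 and 0.13. Without both livers numbered 1, Nags was 0.074, Cps1 0.21, Ass1 0.12, Gls2 0.090, Hal 0.25, Hpd 0.36, Hgd 0.025, Fah 0.11, Tdo2 0.24, Acmsd 0.12, Aass 0.32 and Bckdhb 0.18. With single livers left out the ranges were -0.25 to 0.071 for Nags, -0.21 to 0.15 for Cps1, -0.17 to 0.26 for Otc, -0.35 to 0.32 for Hal, -0.10 to 0.24 for Ftcd, -0.38 to 0.12 for Hpd, -0.16 to 0.12 for Fah, -0.54 to 0.036 for Tdo2, -0.78 to 0.21 for Acmsd, -0.16 to 0.22 for Aass, -0.00046 to 0.24 for Bckdha and -0.10 to 0.10 for Bckdhb. The cause of these changes was not tested.

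Deviations of same-numbered livers from their group means correlated across genes at -0.02, 0.25 and -0.11. Those of differently numbered livers correlated at -0.29 to 0.29, a range that covers these values. Whether the numbers pair the livers therefore cannot be told from them, and the labels give only a shared number. With 3 livers a group, the 95% intervals of the 42 genes are wide.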
